A study of Mus musculus with 16 samples.

Results

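Estrogen receptor-positive (ER+) luminal cells of the pubertal mouse mammary gland were compared between the nipple and the terminal end bud (TEB). They were 231 of the 1317 cells that passed the cell filter, with 43 cells from nipple fragments and 188 from TEB fragments, and 1419 cells were deposited in all. A cell passed with at most 5% of its unique molecular identifiers (UMIs, each standing for 1 captured RNA molecule) on ERCC spike-in RNA, with 5000 to 120000 UMIs and with 200 to 6000 genes. Counts without spike-ins were scaled to 10000 per cell, log-transformed and turned into z-scores per gene, and each cell took the class whose marker list had the highest mean z-score among 6 lists. The ER+ luminal list held Krt18, Esr1, Pgr, Prlr, Cited1 and Foxa1. The competing lists stood for basal cells (Krt5, Krt14, Krt17, Acta2, Mylk), ER- luminal cells (Krt18, Elf5, Kit, Wfdc18, Ltf, Aldh1a3), fibroblasts (Col1a1, Col3a1, Dcn, Pdgfra), myeloid cells (Cd68, Lyz2, C1qa, Tyrobp) and endothelial cells (Pecam1, Cdh5, Kdr, Emcn). The cells were thus chosen by their measured levels of these genes, whose values are a description and carry no test. Where these genes are counted in a list below, their calls are a description too.

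The study asked how mammary cells differ with their place along the gland, and dissected single fragments from 4 nipples, 6 ducts and 6 TEBs of untreated mice. The labels give the strain C57BL/6 for every fragment, and the study's figure and supplement texts give K14-Cre/R26-mTmG mice of 5 weeks of age as the source of every nipple, duct and TEB sample. In these mice the keratin 14 promoter drives Cre and a membrane reporter switches color in keratin 14 cells and their progeny. The study's methods name wild-type C57BL/6 mice as another source of dissected tissue. Sorted cells were profiled in plates by 3' SMART-seq. The labels name no mouse, the nipple fragments are numbered N21 to N24 and the TEB fragments T31 to T34, T42 and T43, so that a mouse or a plate and the location cannot be told apart. The p-values measure the spread between fragments, which may be partly technical.

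ER+ luminal cells line the milk ducts and carry the receptors for estrogen, progesterone and prolactin. In puberty they read the ovarian hormones and pass the message on to their neighbors through secreted signals, among which amphiregulin is the best known for driving duct growth. TEBs are the club-shaped tips that push through the fat pad and leave the ducts behind them, whereas the nipple end is the oldest part of the tree, where the duct opens to the skin.

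The deposited fragments held 2385065 to 3381040 UMIs in nipple and 1856141 to 5233122 in TEB. The summed ER+ luminal cells held 301702 to 719986 UMIs per nipple fragment, from 7 to 13 cells, and 732891 to 2236521 per TEB fragment, from 22 to 37 cells, so that the nipple side is the less precise of the comparison. Depth per cell was close, with a median of 45998 UMIs in nipple and 41756.5 in TEB. The class made up 7.95% to 15.5% of the filtered cells of a nipple fragment and 32.8% to 51.4% of a TEB fragment, shares that dissection and sorting can set. The study's methods describe a dataset of the same number of cells as the table, whereas its results text gives a larger number. All 95 well names occurred in at least 2 of the 16 libraries, since a barcode marks a plate position. No doublet caller was run.

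Because the rule used these genes, the levels of its markers describe the class and do not check its name. All 43 nipple cells and 187 of 188 TEB cells had a UMI of at least 2 of Esr1, Prlr, Cited1 and Foxa1. Elf5 and Kit of the ER- luminal list had 0 UMIs in the nipple cells and 8 and 9 in the TEB cells, and Pecam1 of endothelium had 1 and 0. Other genes of the ER- luminal list were present. Wfdc18 had a UMI in 93.0% of nipple and 92.6% of TEB cells, Aldh1a3 in 32.6% and 29.8%, and Ltf in 27.9% and 4.79%. Among genes the rule did not use, the luminal keratin Krt8 had a UMI in 100% of the cells of both locations, and the T cell gene Cd3e had 0 UMIs in both. The class is a range of a score and not a closed type: 5 nipple and 10 TEB cells lay within 0.2 of the next best score. At least 10 UMIs of the basal keratins Krt5 and Krt14 were found in 7 nipple cells (16.3%), all in N22, N23 and N24, and in 0 of 188 TEB cells.

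RNA of other cells moved with location in these sums. Of 8 tested fibroblast markers 6 were higher in nipple (Col1a1, Col1a2, Col3a1, Dcn, Lum and Col6a3), and their list summed to 1249 to 2509 CPM (UMI counts scaled to a common library depth) in nipple fragments and 206 to 440 in TEB fragments. Of 10 basal markers 6 were higher in nipple, with a sum of 255 to 936 CPM against 44.7 to 289. Col1a1, Col3a1, Dcn and 4 of those basal markers belong to the class rule, so their calls are a description and no test. The part of these markers in the differences below was not tested. Of 5 myeloid markers 0 were called, with sums of 24.9 to 76.3 and 31.1 to 113 CPM, and of 2 endothelial markers 0. Of 8 ER- luminal markers Ltf, a gene of the class rule with 53.2% of its nipple UMIs expected from other wells, was higher in nipple and Csn3 and Cldn10 in TEB. Mast cell, lymphocyte and adipocyte markers were too low to be tested, with medians over fragments of at most 13.4 CPM for any of these lists. The share of a fragment's ER+ luminal UMIs expected from other wells of its plate, estimated from fibroblast and myeloid markers, was 6.11% to 12.5% in nipple and 2.07% to 14.7% in TEB, highest in T43. For each gene below this share gives the percent of its UMIs expected from other wells in the location where it was higher, and 38.0% to 121% was expected so for the fibroblast markers. Col1a1, Col3a1 and Dcn were among the markers behind the estimate, so their percents are partly fixed by it. In a summed sample, fewer expressing cells and less RNA per cell cannot be told apart.

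The 6 genes of the ER+ luminal list are given as a description. Prlr, the prolactin receptor, stood at 908, 1074, 803 and 929 CPM in N21 to N24 and at 702 to 1153 in TEB, with a median of 834. Pgr, the progesterone receptor, stood at 148, 156, 79.9 and 134 CPM in nipple and at 110 to 140 in TEB. Foxa1, a pioneer factor of estrogen receptor binding, had 157, 200, 49.6 and 134 CPM in nipple and 115 to 160 in TEB. Esr1 itself had 154, 47.4, 35.8 and 73.5 CPM in nipple and 24.9 to 53.0 in TEB, and Cited1, a coactivator of the receptor, 1331 to 1547 in nipple and 1456 to 2123 in TEB. Krt18 had 3823 to 5593 and 3834 to 6929 CPM. The ranges of the locations overlapped for each of these genes, with the highest Esr1 value in N21.

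Across all genes, 561 of 9112 tested passed edgeR's quasi-likelihood test at a Benjamini-Hochberg adjusted p of 0.05, which is 6.16% of the genes. Of these, 258 (2.83% of all tested) were higher in nipple, with a median log2 difference of 1.64, and 303 (3.33%) were higher in TEB, with a median of -1.60. The median over all tested genes was -0.05. In 408 of the called genes every fragment of one location lay above every fragment of the other (163 nipple-higher, 245 TEB-higher), as did 651 of all tested genes (7.14%). More than 20% of the UMIs was expected from other wells for 47 of the nipple-higher and 5 of the TEB-higher genes. With cells thinned to 5000 UMIs each, 216 genes were called (112 nipple-higher and 104 TEB-higher) among the 3079 that then had enough counts to be tested.

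**Figure D1:**
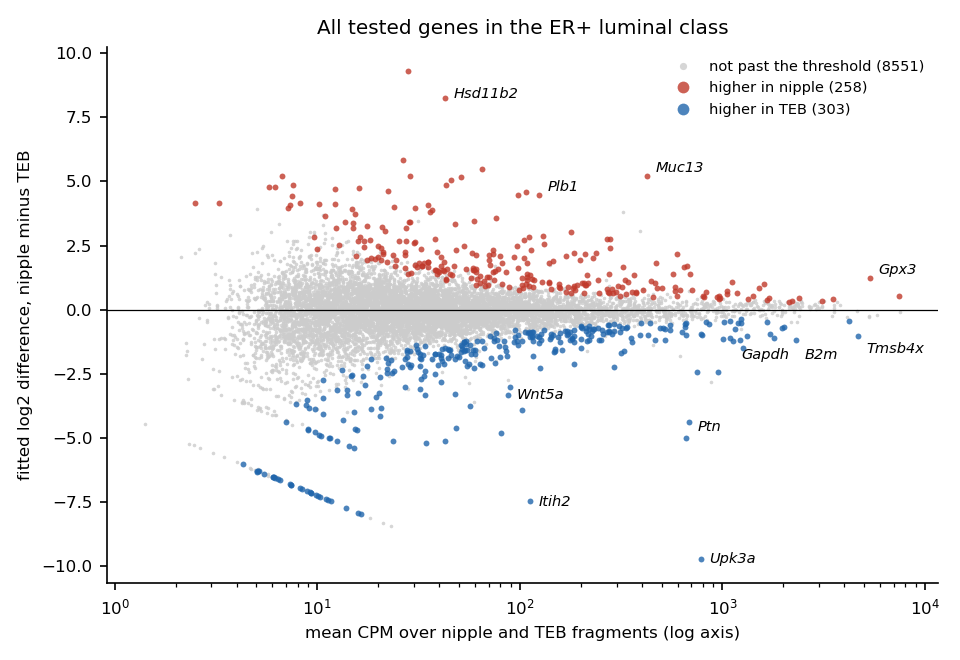
Fitted log2 difference of nipple minus TEB (vertical axis) against mean CPM over nipple and TEB fragments (log axis) for the 9112 genes tested in ER+ luminal sums, 1 point per gene, with 258 called higher in nipple in red and 303 called higher in TEB in blue. Muc13 and Upk3a stand far from 0 at high expression, and the points on slanted lines at the lower left are genes with 0 or few nipple UMIs, whose fitted values are no measure of size.

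The genes with the largest differences were named by rule, 12 in each direction of which 10 nipple-higher and 12 TEB-higher genes are reported here, from 120 nipple-higher and 158 TEB-higher genes with at least 50 CPM in the higher location, no overlap of fragments and under 20% of UMIs expected from other wells. In this text CPM are scaled with TMM size factors unless said otherwise, and log2 differences are nipple minus TEB with their standard error.

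Nipple ER+ luminal cells differed from those of the TEB by Muc13, a transmembrane mucin of epithelial surfaces (mouse chromosome 16, 33794037 to 33819934, GRCm38). Its level was 1148, 871, 1075 and 1008 CPM in N21 to N24 and 10.03 to 51.7 CPM in TEB, with a median of 19.3. The groups lay far apart, by a log2 difference of 5.22 ± 0.40 (edgeR adjusted p = 3.5e-07). When each cell was thinned to 5000 UMIs, 37 of 43 nipple cells (86.0%, 70% to 100% over fragments) and 13 of 188 TEB cells (6.91%) held a UMI of it. Of the fibroblasts of the same fragments, which should lack this epithelial mucin, 9.92% in nipple and 2.08% in TEB held one. Unthinned, the shares of ER+ luminal cells were 93.0% and 17.6%.

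Sftpd, C2, Ifitm1 and 5430419D17Rik were also named as nipple-higher. Sftpd, a collectin that binds microbial sugars, had 170, 515, 186 and 147 CPM in nipple and 0 to 49.1 in TEB, with a median of 2.15 (log2 difference 4.60 ± 0.99, edgeR adjusted p = 0.0134). Its TEB signal came mostly from T33, and it was not called when duct fragments were left out of the fit (adjusted p = 0.0677). C2, a complement component that forms part of the C3 convertase, had 103, 84.7, 67.5 and 183 CPM in nipple and 0.818 to 5.82 in TEB (5.06 ± 0.53, edgeR adjusted p = 1.31e-07). Ifitm1, an interferon-induced membrane protein, had 122, 115, 19.3 and 19.7 CPM in nipple and 0 to 7.76 in TEB (5.195 ± 0.87). In thinned cells 27.3% of nipple fibroblasts and 6.98% of nipple ER+ luminal cells held an Ifitm1 UMI, and 11.8% of its nipple UMIs was expected from other wells. 5430419D17Rik, whose role is not described here, had 61.8, 91.5, 123 and 219 CPM in nipple and 0 to 12.9 in TEB (5.19 ± 1.24), and was not called without N24 (edgeR adjusted p = 0.0579).

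Csn1s2b, a casein of milk, was found in 6 of 43 nipple cells and in 0 of 188 TEB cells. Its CPM were 69.3, 176, 8.27 and 26.9 in nipple and 0 in every TEB fragment, at least 154-fold higher against a floor of 3 UMIs over the TEB sums (edgeR adjusted p = 0.0271). A few cells thus carried it, and the call was lost without N24 (adjusted p = 0.0504) and without a filter on low counts (0.0636).

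The remaining nipple-higher genes encode enzymes. Plb1, a phospholipase, had 363, 329, 218 and 258 CPM in nipple and 0.831 to 49.1 in TEB, with a median of 7.61 (log2 difference 4.48 ± 0.60, edgeR adjusted p = 9.98e-05). Degs1, the desaturase that makes ceramide, had 114, 77.9, 136 and 194 CPM in nipple and 6.50 to 16.6 in TEB (3.45 ± 0.35), with 14.2% of its nipple UMIs expected from other wells. In thinned cells its share was 27.9% in nipple and 5.85% in TEB ER+ luminal cells and 69.4% and 69.8% in fibroblasts. Ptges, which makes prostaglandin E, had 82.4, 40.7, 55.1 and 32.3 CPM in nipple and 0.818 to 4.33 in TEB (4.62 ± 0.59). Thinned cells held a Ptges UMI in 18.6% of nipple ER+ luminal cells, 15.7% of nipple fibroblasts and 1.06% of TEB ER+ luminal cells. Hsd11b2, which inactivates glucocorticoids, varied among nipple fragments, with 3.75, 268, 130 and 25.1 CPM in nipple. It had 2 UMIs in all TEB sums, both in T32, a ratio of pooled rates of 397 with an exact 95% counting interval of 108 to 3302. In thinned cells 11.6% of nipple ER+ luminal cells and 10.7% of nipple fibroblasts held an Hsd11b2 UMI.

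TEB ER+ luminal cells differed from those of the nipple by Upk3a, a uroplakin known from the urothelial surface (chromosome 15, 85017141 to 85022547). It had 1.87, 0, 2.76 and 0 CPM in N21 to N24 and 784 to 1649 CPM in TEB, with a median of 1360. With 3 UMIs in all nipple sums against 11205 in TEB, pooling gave a TEB rate 889 times that of nipple (exact 95% counting interval 304 to 4311, edgeR adjusted p = 3.5e-07). In thinned cells 115 of 188 TEB cells (61.2%) and 0 of 43 nipple cells held a UMI of it, against 9.38% of TEB fibroblasts. Itih2, a heavy chain of the inter-alpha-trypsin inhibitor that binds hyaluronan (chromosome 2, 10094593 to 10131396), had the smallest p of all genes, with 0, 0, 2.76 and 0 CPM in nipple and 125 to 223 in TEB. Pooling the UMIs gave a TEB rate 199 times that of nipple (54.9 to 1641, edgeR adjusted p = 3.8e-10), and thinned cells held it in 46.3% of TEB and 0 of 43 nipple cells.

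Several further TEB genes encode secreted proteins. Ptn, the heparin-binding growth factor pleiotrophin, had 91.8, 3.39, 57.9 and 43.04 CPM in nipple and 965 to 1303 in TEB, with a median of 1105 (log2 difference -4.40 ± 0.44, edgeR adjusted p = 2.01e-05). Thinned cells held it in 13.95% of nipple and 76.6% of TEB ER+ luminal cells, and the nipple share lay below the 39.7% of nipple fibroblasts. Fgb, the fibrinogen beta chain, had 0, 67.8, 66.2 and 5.38 CPM in nipple and 763 to 1765 in TEB (-5.01 ± 0.71). Wnt5a, a Wnt ligand that restrains branching, had 20.6, 13.6, 8.27 and 12.5 CPM in nipple and 92.8 to 200 in TEB (-3.32 ± 0.42, edgeR adjusted p = 2.28e-06). Each of these 3 genes separated all TEB from all nipple fragments, as the naming rule required.

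The remaining TEB-higher genes act inside the cell or at its membrane. Grb14, an adaptor that inhibits the insulin receptor, had 33.7, 3.39, 1.38 and 3.59 CPM in nipple and 123 to 200 in TEB (-3.92 ± 0.49). Ctse, an aspartic protease of endosomes, had 0, 6.78, 11.02 and 0 CPM in nipple and 82.3 to 158 in TEB (-4.80 ± 0.75). Trpc6, a calcium-permeable channel, had 0, 3.39, 4.13 and 0 CPM in nipple and 50.7 to 90.3 in TEB (-5.14 ± 0.64). Crym, a thyroid hormone-binding protein, had 3 UMIs, all in N21, and 20.6 to 82.1 CPM in TEB, a pooled ratio of 40.3 (13.7 to 196). Its call was lost in thinned cells (edgeR adjusted p = 0.17). Pir, a nuclear iron-binding protein, had 0, 0, 9.65 and 0 CPM in nipple and 40.1 to 147 in TEB, and Golim4, a Golgi protein, 0, 30.5, 2.76 and 1.79 against 66.5 to 116. For Golim4 thinned shares were 2.33% in nipple and 25.5% in TEB ER+ luminal cells and 33.9% and 41.7% in fibroblasts. 2610524H06Rik, whose role is not described here, had 0, 3.39, 15.2 and 0 CPM in nipple and 27.95 to 81.4 in TEB.

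**Figure D2:**
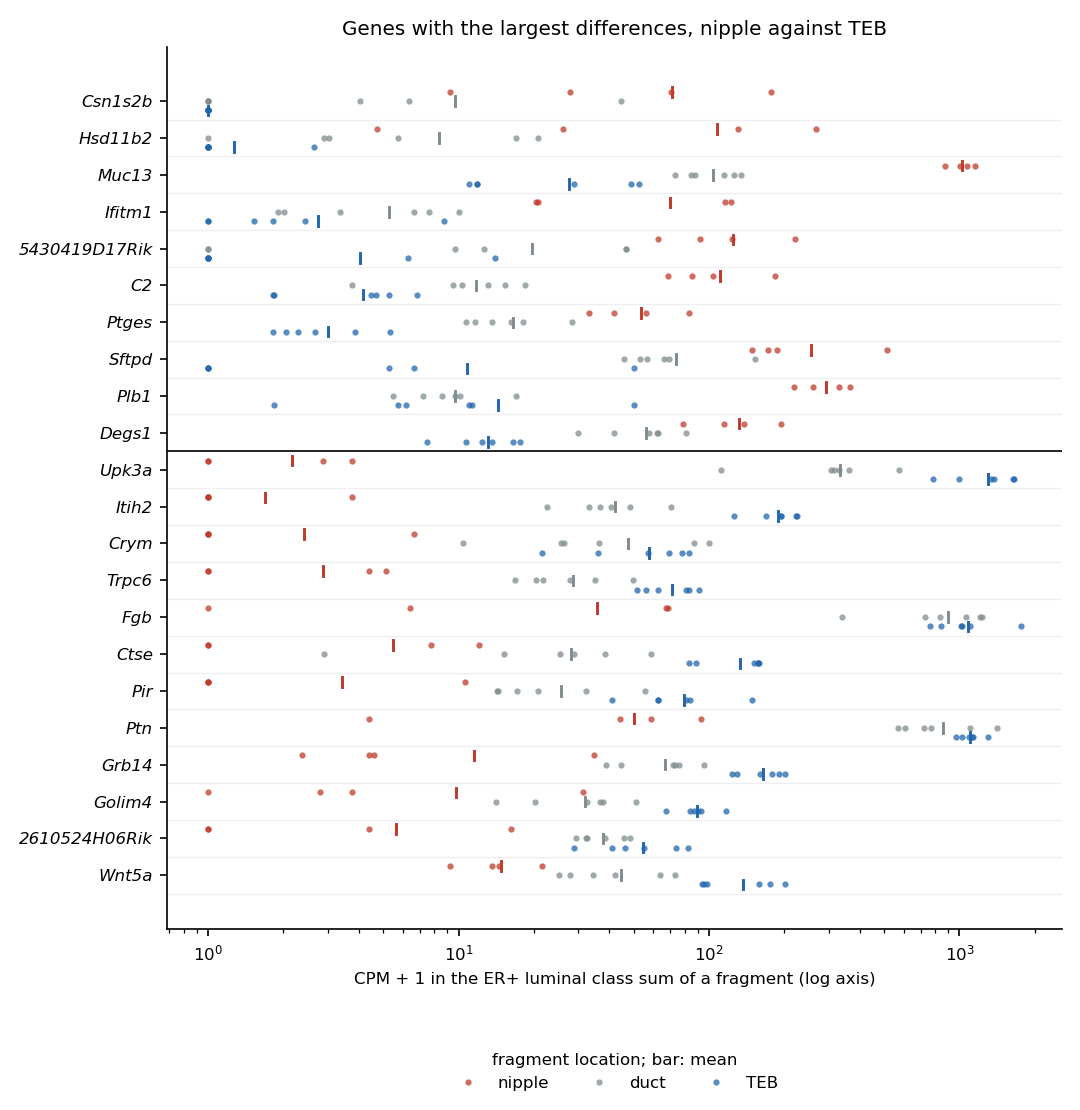
CPM plus 1 in the ER+ luminal sum of each fragment (log axis) for 10 nipple-higher genes (top) and the 12 TEB-higher genes (bottom), with nipple fragments in red, duct in grey and TEB in blue, and a bar at each mean. The 4 nipple points and the 6 TEB points of a gene do not overlap, which the naming rule required, and most duct points lie between them.

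**Figure D3:**
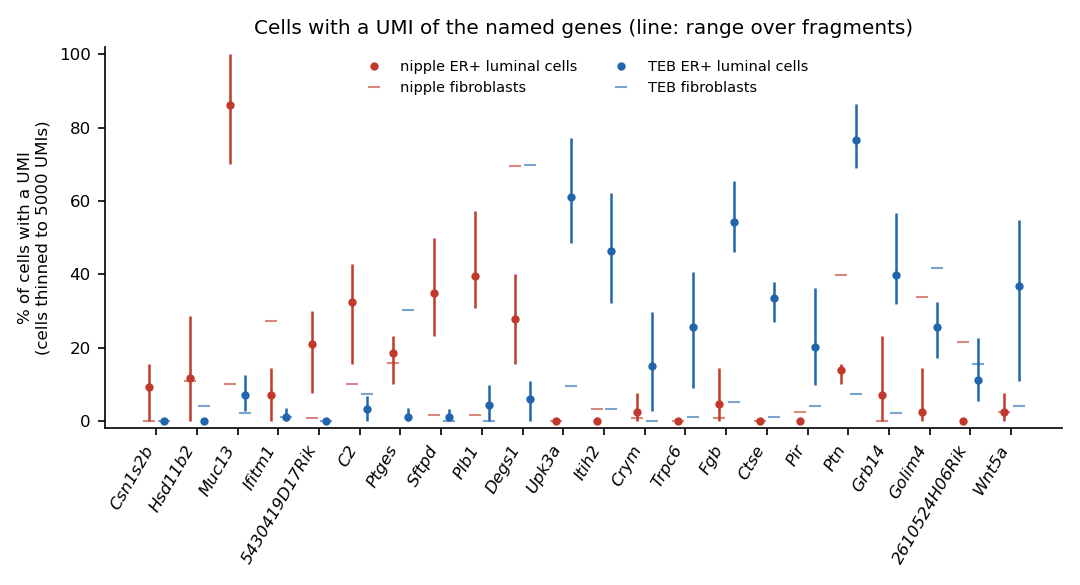
Percent of cells with a UMI of each named gene after every cell was thinned to 5000 UMIs, with points for all 43 nipple and 188 TEB ER+ luminal cells, lines for the range over fragments and dashes for fibroblasts of the same fragments. Muc13 stands at 86.0% against 6.91%, Upk3a at 0 of 43 cells against 61.2%, and the fibroblast dashes lie above the ER+ luminal points for Degs1 and Golim4.

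Among 36 tested hormone receptors and luminal transcription factors, 5 were higher in nipple (13.9% beside 2.83% of all genes) and 3 in TEB (8.33% beside 3.33%). Esr1, Pgr, Prlr, Cited1 and Foxa1 of the class rule belong to this list, and none of them was among its calls. The list's median was 0.02. The nipple-higher ones were Id2, an inhibitor of helix-loop-helix factors (451 ± 232 CPM in nipple, SD, n = 4, and 96.4 ± 54.2 in TEB, n = 6, log2 difference 2.22 ± 0.43), the vitamin D receptor Vdr (34.9 against 8.93 CPM, 1.98 ± 0.60), Klf4, Klf6 and Stat3. Stat3, with 265 against 169 CPM, lay at an edgeR adjusted p of 0.0497. The TEB-higher ones were Hes1, a repressor downstream of Notch, with 617 to 1374 CPM in nipple and 1979 to 2383 in TEB (-0.97 ± 0.15, edgeR adjusted p = 0.000106), Gata3, which specifies the luminal lineage, with 158 to 255 and 326 to 579 CPM (-1.13 ± 0.23), and Bhlhe40, a circadian and hypoxia-related repressor (-0.84 ± 0.21). Their fragments did not overlap between the locations, as in 408 of the 561 called genes. Hes1 was also the single called member of 13 Notch genes, as Wnt5a, described above, was of 13 Wnt genes. Either is 7.69% of its list, beside 6.16% of all genes called.

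Of 23 tested secreted factors of hormone-sensing cells, 3 were higher in nipple and 2, Wnt5a and Itih2, in TEB. Areg, the amphiregulin gene through which estrogen drives duct growth, was modestly higher in nipple, at 2422 to 3157 CPM against 1571 to 2705 (0.44 ± 0.11, edgeR adjusted p = 0.0178), and the ranges overlapped. Vegfa, the vascular growth factor, had 50.6 to 213 CPM in nipple and 8.60 to 45.0 in TEB (2.12 ± 0.42), with 17.6% of its nipple UMIs expected from other wells. The whole UMI signal of Cxcl14, the remaining nipple-higher chemokine gene, was expected from other wells (194%). Errfi1, a feedback inhibitor of the EGF receptor, rose with Areg in the list of EGF family genes, at 276 to 592 CPM against 106 to 241 (1.38 ± 0.22, edgeR adjusted p = 8.46e-05). These were 2 of 9 tested members (22.2% beside 2.83% of all genes), and 0 were higher in TEB. Wnt4, a progesterone target, was at 37.2 and 34.3 CPM on average and Tnfsf11, the RANKL gene, did not reach the level to be tested.

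Some antigen presentation genes were lower in nipple. Of 33 tested genes of interferon response and antigen presentation, 7 were higher in TEB (21.2% against 3.33% of all genes) and 2 in nipple (6.06% against 2.83%). B2m, the light chain of class I molecules, had 1064 to 1707 CPM in nipple and 2508 to 3835 in TEB (-1.21 ± 0.13, edgeR adjusted p = 1.32e-07). The class I heavy chains H2-D1 (541 to 852 and 1345 to 1884 CPM, -1.20 ± 0.13) and H2-K1 (541 to 813 and 1248 to 1517 CPM, -1.09 ± 0.12) followed it. These 2 genes are near copies in sequence, and counting kept unique alignments, so that their split is uncertain. The immunoproteasome subunits Psmb8 (74.5 to 183 and 353 to 502 CPM, -1.71 ± 0.24) and Psmb9, the peptide transporter Tap1 (10.8 to 18.7 and 34.4 to 81.4 CPM, -2.03 ± 0.40) and its partner Tapbp were the rest. All but B2m lie on chromosome 17, within the major histocompatibility region, H2-K1 at 33996017 to 34000347 and H2-D1 at 35262730 to 35267499. Class II genes showed no call, with H2-Ab1 at 26.2 and 26.3 CPM, nor did Ifitm3 (788 and 774 CPM). The nipple-higher members were Ifitm1, given above, and Bst2, an antiviral tether (0.79 ± 0.18). The list's median was -0.08. Without the cells that held 10 basal keratin UMIs, 5 of the list's genes were called higher in TEB.

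Glycolysis genes leaned to the TEB. Of 19 tested, 8 were higher in TEB (42.1% beside 3.33% of all genes) and 1 in nipple (5.26% beside 2.83%). The list's median was -0.69 beside -0.05 over all genes. Gapdh had 577 to 682 CPM in nipple and 1165 to 1761 in TEB (-1.21 ± 0.14, edgeR adjusted p = 6.02e-07), Pkm, the last enzyme of the pathway, 552 to 617 and 1044 to 1599 (-1.16 ± 0.14), and Tpi1, the triose isomerase, 453 to 583 and 886 to 1165 (-0.99 ± 0.16). Aldoa, Ldha, Pgk1, Aldoc and Pfkp completed the group, with differences of -0.58 to -2.26. In all 8 genes the fragments of the locations did not overlap, as in 408 of the 561 called genes and 7.14% of all tested. Gapdh has processed near copies in the genome, so its level is uncertain. The nipple-higher member was Ndrg1 (1.17 ± 0.21), a gene on the list for its response to low oxygen and no enzyme of the pathway. In thinned cells 5 of 14 testable genes were called higher in TEB. The glucose transporter Slc2a1 went the other way without a call, at 126 and 69.0 CPM (edgeR adjusted p = 0.0933).

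The promoters shown are those of the TEB-higher antigen presentation and glycolysis genes, which were picked by their calls. Uncalled members of the lists were not counted beside them, so a relation of the letters to location was not tested. Promoters were 300 bases, from 250 before to 50 after the RefSeq start, for 27025 genes on GRCm38.p6, and 8 motifs were searched on both strands after the calls were known. The letters ACGTG, the core of the hypoxia response element, lay in 6 of the 8 TEB-higher glycolysis promoters (Gapdh, Pkm, Aldoa, Pgk1, Ldha and Aldoc), in 0 of the 7 antigen presentation promoters and in 21.8% of all promoters. The interferon-stimulated response element, TTTC and TTTC 2 bases apart, lay in 1 of the 7, that of B2m, and in 3.99% of all. TATAAA lay in 4 of the 7 (B2m, H2-D1, H2-K1 and Psmb8), in 0 of the 8 and in 15.7% of all. The estrogen response element, GGTCA and TGACC 3 bases apart (0.0740% of all), was in none of these promoters nor in those of the 5 nipple-higher and 9 TEB-higher named genes that matched. A match is a description of letters and not a bound site. The windows below are on the gene's strand, with the match in capitals. Those of Pkm (chr9:59657141-59657167, plus strand), Ldha (chr7:46845648-46845674, plus), Aldoa (chr7:126799365-126799391, minus) and Pgk1 (chrX:106186939-106186965, plus) hold ACGTG or its reverse complement, and that of B2m (chr2:122147539-122147566, plus) holds the interferon element in reverse.
Pkm: tccgatccggtCACGTccgcgccgcag
Ldha: gtgtcgcagcaCACGTggagccactct
Aldoa: gtggctcgagtCACGTcctagcggggc
Pgk1: cgtcgtgcaggACGTGacaaatggaag
B2m: taagaacatGAAACTGAAAatgggaaag

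The actin cytoskeleton list had the most called members. Of 45 tested, 15 were higher in TEB (33.3% beside 3.33% of all genes) and 3 in nipple (6.67% beside 2.83%), with a median of -0.30. Tmsb4x, which binds actin monomers, had 2587 to 3110 CPM in nipple and 4691 to 9185 in TEB (-1.05 ± 0.15, edgeR adjusted p = 5.22e-05), Rhoc, a small GTPase of motility, 325 to 506 and 725 to 931 (-0.99 ± 0.19), and the myosin light chain Myl12b 166 to 348 and 416 to 692 (-1.003 ± 0.18). Tropomyosins Tpm1 and Tpm4, Cfl1, Pfn1, Rac1 and others fell in nipple by 0.39 to 1.53 on the log2 scale. The nipple-higher members were Ezr, which ties actin to the apical membrane (1921 to 2176 and 905 to 1417 CPM, 0.85 ± 0.13), Vcl and Myh14. Tmsb4x has near copies in the genome and its level is uncertain.

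S100 proteins, annexins and galectins changed in both directions. Of 23 tested, 5 were higher in nipple (21.7% beside 2.83% of all genes) and 7 in TEB (30.4% beside 3.33%). Lgals9, a galectin that curbs T cells, had 19.7 to 125 CPM in nipple and 227 to 332 in TEB (-2.11 ± 0.39), and Anxa6 67.8 to 122 and 198 to 268 (-1.14 ± 0.20). S100a6, a calcium-binding protein, was at 2943 to 3857 and 4356 to 5695 CPM (-0.44 ± 0.12). Anxa3 (0.84 ± 0.17) and Anxa8 (3.71 ± 0.87) were higher in nipple, as were S100a4, Lgals1 and Lgals7, for which 20.9%, 92.1% and 30.0% of the nipple UMIs were expected from other wells. The TEB-higher count was 4 without T32 and 4 without N23.

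Redox and detoxification enzymes also split. Of 48 tested, 4 were higher in nipple (8.33% beside 2.83% of all genes) and 6 in TEB (12.5% beside 3.33%). Mgst3, a microsomal glutathione transferase, had 82.4 to 106 CPM in nipple and 388 to 514 in TEB (-2.23 ± 0.18, edgeR adjusted p = 6.39e-10), the second smallest p of all genes. Mgst1, Prdx4, Gsta4, Gstt2 and Gsta2 were the others, and Gsta2 had no UMI in nipple and 7.16 to 73.2 CPM in TEB. Gpx3, the secreted glutathione peroxidase, went the other way, at 7243 to 9242 CPM in nipple and 2713 to 4696 in TEB (1.23 ± 0.14, edgeR adjusted p = 1.06e-05). Gsto1 (0.93 ± 0.19) and Ggct were higher in nipple too, and so was Aldh2, with 44.4% of its UMIs expected from other wells.

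Protein synthesis genes leaned to the nipple by small amounts. Of 76 tested ribosomal protein genes 74 had a positive difference, with a median of 0.19, and 6 were called, all higher in nipple (Rpl11, Rpl23, Rps12, Rps25, Rps4x and Rplp1, by 0.31 to 0.59). The list summed to 158197 to 176426 CPM in nipple and 140982 to 147156 in TEB. Its count ranged from 1 to 20 over the other settings, with 18 under another scaling (RLE), 2 without N22, 3 without T31, T33, T42, N21 or N24 and 10 to 13 without D51, D52, D61 or D62, and near copies in the genome make single ribosomal genes uncertain. Of 29 Myc and ribosome assembly genes, Srm, a polyamine synthase (114 to 233 and 34.8 to 86.0 CPM, 1.64 ± 0.29), Nop56 and the amino acid transporter subunit Slc3a2 were higher in nipple and 0 in TEB. Atf4 (456 to 511 and 255 to 333 CPM, 0.69 ± 0.17) and the chaperone Hspa5 were the called members of 28 unfolded protein response genes. Of 30 immediate early and heat shock genes, which dissociation is known to switch on, Egr1, Klf4, Klf6 and Maff were higher in nipple. The nipple-higher shares were 7.89% for ribosomal protein, 10.3% for Myc and ribosome assembly and 7.14% for unfolded protein response genes. That of immediate early and heat shock genes was 13.3%, beside 2.83% of all genes. Gadd45g, a stress and cell cycle brake gene, had 556 to 1090 CPM in nipple and 216 to 471 in TEB (1.39 ± 0.23), and Gadd45a followed (0.97 ± 0.24).

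Of 45 tested mitosis genes 3 (6.67%) and of 41 DNA replication genes 2 (4.88%) were called, all higher in TEB, beside 3.33% of all genes. Mitosis genes had a median of -1.66, which ranged from -2.97 to -0.28 over the alternatives, and 41 were negative. The called ones were Smc4 of condensin (7.17 to 27.1 and 60.5 to 96.3 CPM, -2.20 ± 0.43), Ckap2 and Cdkn3, and the list's sum overlapped between locations, at 1359 to 2964 CPM in nipple and 1983 to 4488 in TEB. Without N23 the count was 13, without D61 5, with DESeq2 10, and in thinned cells 1 of 11 testable genes. DNA replication genes had a median of -0.72, 34 of 41 negative, with Chaf1b and Gins1 called. Gins1 had no UMI in nipple and 2.11 to 14.2 CPM in TEB. The sum of the replication list overlapped too, at 594 to 2256 CPM in nipple and 969 to 3640 in TEB.

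Fatty acid genes gave 3 nipple-higher calls of 37 in the list of sterol and fatty acid synthesis (8.11% beside 2.83% of all genes). Acsl3, which activates fatty acids for lipid droplets, had 101 to 165 CPM in nipple and 14.2 to 38.2 in TEB (2.33 ± 0.32, edgeR adjusted p = 1.06e-05), and Scd1 and Dgat2 followed. No sterol enzyme was among the calls, and Fdps, for example, was at 156 to 203 and 100 to 244 CPM. Among 28 junction genes 1 was called higher in nipple (3.57% beside 2.83% of all genes) and 3 in TEB (10.7% beside 3.33%). Cldn8, a sealing claudin, had 37.5 to 125 CPM in nipple and 1.30 to 8.60 in TEB (3.41 ± 0.59), whereas Cldn10 had 47.4 to 168 and 201 to 334 (-1.50 ± 0.27) and Cldn6 1.87 to 50.8 and 54.8 to 106 (-2.14 ± 0.54). Tjp1, the scaffold of tight junctions, was TEB-higher as well. Of 15 luminal keratin and surface genes 2 were higher in TEB (13.3% beside 3.33% of all genes) and 1 in nipple (6.67% beside 2.83%). Krt7 (1065 to 1758 and 2008 to 3022 CPM, -0.68 ± 0.15) and the epithelial factor Elf3 (88.0 to 222 and 231 to 344 CPM, -1.04 ± 0.23) were higher in TEB. The mucin Muc1 was higher in nipple, at 21.5 to 71.2 and 0 to 13.1 CPM (2.47 ± 0.66).

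The other lists gave few calls. Of 13 defense genes 2 were called in each direction (15.4%, beside 2.83% of all genes in nipple and 3.33% in TEB). Clu, a secreted chaperone, and Ly6d were higher in TEB. Cfb, a complement factor, was higher in nipple (9.37 to 30.3 and 0 to 1.73 CPM), as was Ltf, given above. Of 21 epidermal genes 4 were nipple-higher (19.0% beside 2.83% of all genes) and 1, Ly6d, was TEB-higher (4.76% beside 3.33%). The nipple-higher ones were Sfn, Crabp2, Lgals7 (30.0% of its UMIs expected from other wells) and Krt17 of the class rule (76.0%). Further, 0 of 4 tested epidermis and hair follicle markers were called, and Krt1 had no UMI in nipple cells. Ctsd, a lysosomal protease, had 1338 to 1972 CPM in nipple and 485 to 1002 in TEB (1.09 ± 0.16, edgeR adjusted p = 3.44e-05) and Timp2 was TEB-higher, whereas the nipple-higher Mmp2, Mmp3 and Adamts1 had 137%, 101% and 62.6% of their UMIs expected from other wells. The same held for Igfbp7 (86.7%), Col4a2 (74.1%) and the milk protein Csn3, higher in TEB (64.0%). Sdc1 was TEB-higher and Ltbp1, a carrier of latent TGF-beta, nipple-higher (71.7 to 169 and 7.36 to 63.0 CPM, 1.95 ± 0.42). Of 87 oxidative phosphorylation genes Uqcrq was nipple-higher and Sdhc and Cox6b2 TEB-higher, 3.45% against 6.16% of all genes. Of 17 semaphorin, Slit, netrin and ephrin genes 0 were called by edgeR.

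**Figure D4:**
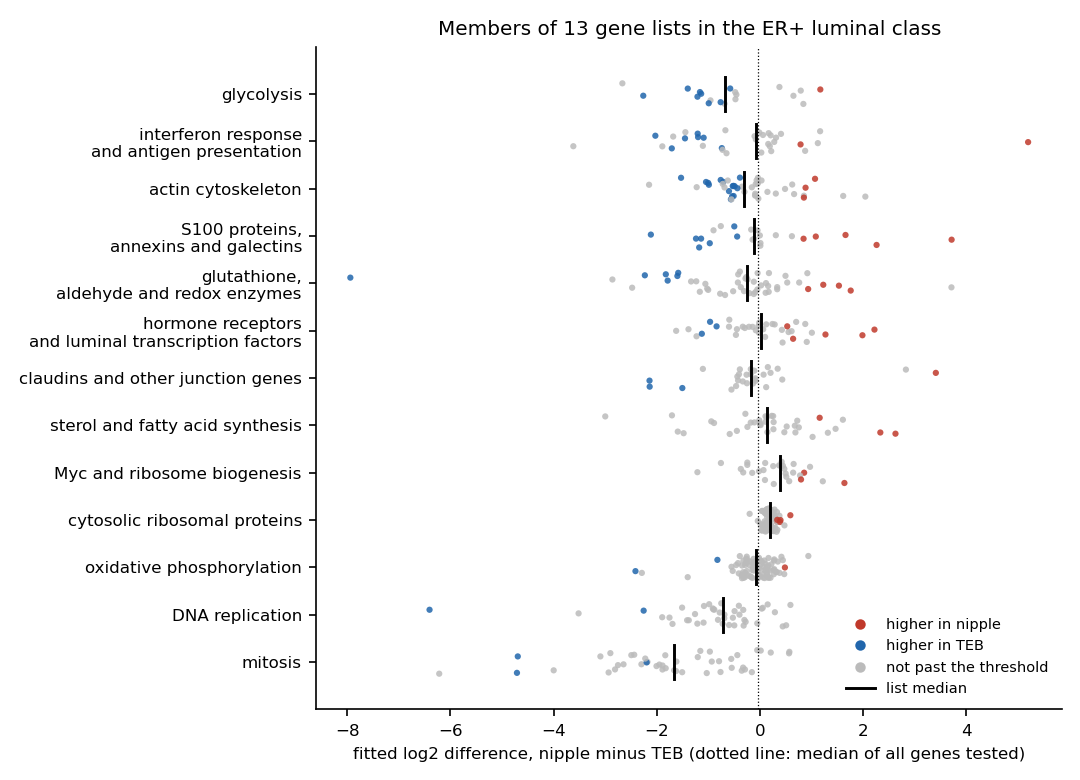
Fitted log2 difference of nipple minus TEB (horizontal axis) for each tested member of 13 gene lists in ER+ luminal sums, with called members in red (nipple-higher) or blue (TEB-higher), a black bar at the list median and a dotted line at the median of all genes (-0.05). Glycolysis (median -0.69) and actin genes (-0.30) lie left of the line, ribosomal proteins (0.19) close to its right, and mitosis genes spread widely, with a median of -1.66 that was -2.97 to -0.28 over the alternatives.

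The duct lay between. For 491 of the 561 called genes (87.5%) the mean CPM of the duct fragments fell between the nipple and the TEB mean, for 44 above both and for 26 below both. The choice of genes by their nipple to TEB difference favors such an order. On the log2(CPM + 1) scale the duct mean was closer to TEB for 370 genes and closer to nipple for 191. Muc13 in duct was 72.0 to 133 CPM, above all TEB fragments and far below all nipple fragments, and Upk3a was 111 to 570 CPM. Gpx3 (mean 7728 CPM) stood near the nipple, and B2m (2822 CPM) and Fgb (899 CPM) near the TEB.

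A pair of terms tested where this location difference differed between the ER+ luminal class and another, each fitted with the fragment as a block. Against ER- luminal cells 160 of 8966 genes (1.78%) differed in their nipple minus TEB difference, 46 more positive and 114 more negative in ER+ luminal cells, over 15 fragments of which 4 were nipple and 5 TEB, since T43 had under 5 ER- luminal cells. Under RLE scaling the split was 63 and 99. Of the 160, 65 were also called for nipple against TEB in the ER+ class. CPM in this and the next 3 paragraphs are plain, without size factors. The ER- luminal class itself differed between the locations in genes of the class rule, over its 51 nipple and 57 TEB cells. Krt14 had a UMI in 86.3% of the nipple and 26.3% of the TEB cells, and Elf5 in 15.7% and 54.4%. Wfdc18 had one in 100% of both. Whether the same kind of ER- luminal cell was compared at both locations was not tested. S100a6 had the smallest p. It was higher in TEB in ER+ luminal cells (2967 to 3816 CPM in nipple, 4368 to 5424 in TEB) and higher in nipple in ER- luminal cells (6295 to 9005 and 2260 to 3734), a difference of differences of -1.89 ± 0.15 (edgeR adjusted p = 2.9e-09). Krt7 (-1.64 ± 0.17), Elf3 (-3.42 ± 0.40) and Mgst3 (-3.18 ± 0.37) turned around in the same way, and Elf3 in ER- luminal cells had 301 to 534 CPM in nipple and 65.2 to 113 in TEB. Tmsb4x differed in ER+ luminal cells and lay at 2906 to 3872 and 2446 to 4692 CPM in ER- luminal cells (-1.17 ± 0.13).

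Among the more positive genes Map1b, a microtubule-associated protein, had 228 to 312 CPM in nipple and 85.6 to 155 in TEB in ER+ luminal cells, and 39.1 to 117 and 150 to 309 in ER- luminal cells (2.66 ± 0.38, edgeR adjusted p = 2.01e-05). Fkbp11, a prolyl isomerase of secretory cells (3.96 ± 0.58), Gng12, a G protein subunit (1.94 ± 0.31), the chaperone Hspa8 (1.25 ± 0.21) and the ferritin chain Fth1 (0.72 ± 0.12) followed. Gng12 had 749 to 1820 CPM in nipple ER+ luminal cells and 78.3 to 381 in the other 3 groups of fragments. By list, 11 of 23 S100 proteins, annexins and galectins and 11 of 45 actin genes were called, beside 1.78% of all genes. All were more negative in ER+ luminal cells. For Muc13 and Upk3a this term could not be measured, since ER- luminal cells held little of them in 1 location (standard errors of 48.5 and 12.5). Both had the same direction as in ER+ luminal cells. Scaled with size factors, ER- luminal means in nipple and TEB were 103 (SD 163) and 0.887 CPM for Muc13 and 0 and 96.0 (SD 163) for Upk3a. B2m did not pass the term (-0.54 ± 0.21, edgeR adjusted p = 0.248). H2-D1 (-1.61 ± 0.21, edgeR adjusted p = 2.72e-06), H2-K1 (-1.61 ± 0.20) and Psmb8 (-2.20 ± 0.47) passed, 3 of 32 genes of its list. Gapdh, Pgk1 and Pfkp passed among 19 glycolysis genes.

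Against basal cells 560 of 9607 genes (5.83%) differed, 259 more positive and 301 more negative in ER+ luminal cells, and 128 of them were also called for nipple against TEB in the ER+ class. In thinned cells 238 were called. Muc13 did not pass this term (2.23 ± 1.57, edgeR adjusted p = 0.468). B2m led: in basal cells it was higher in nipple (982 to 1237 CPM) than in TEB (573 to 918), against 1041 to 1689 and 2581 to 3653 in ER+ luminal cells (-2.001 ± 0.17, edgeR adjusted p = 5.77e-10). H2-D1 had 466 to 636 CPM in nipple and 93.4 to 279 in TEB basal cells (-2.95 ± 0.27), and 9 of 33 genes of interferon response and antigen presentation were called, all more negative. Lgals9 also turned around, with 145 to 304 and 0 to 23.1 CPM in basal cells (-6.79 ± 0.63), as did Tuba4a (-2.87 ± 0.31). Gapdh was level in basal cells, at 1186 to 1425 and 1088 to 1390 CPM (-1.46 ± 0.16), and 9 of 19 glycolysis genes were called, all more negative in ER+ luminal cells.

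The named genes more positive than in basal cells were Acot1, an acyl-CoA thioesterase (380 to 579 CPM in nipple and 184 to 279 in TEB in ER+ luminal, 2.94 to 22.997 and 109 to 194 in basal cells, 4.19 ± 0.49), Map3k1 (3.72 ± 0.50), Marcksl1 (1.86 ± 0.25), Gm14005 (3.28 ± 0.37) and Serpinf1 (4.53 ± 0.50). For Serpinf1, a secreted inhibitor that fibroblasts make, the whole nipple signal in ER+ luminal cells was expected from other wells (154%). Of 28 unfolded protein response genes 10 were more positive and 1 more negative in ER+ luminal than in basal cells, beside 5.83% of all genes called in either direction. 

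**Figure D5:**
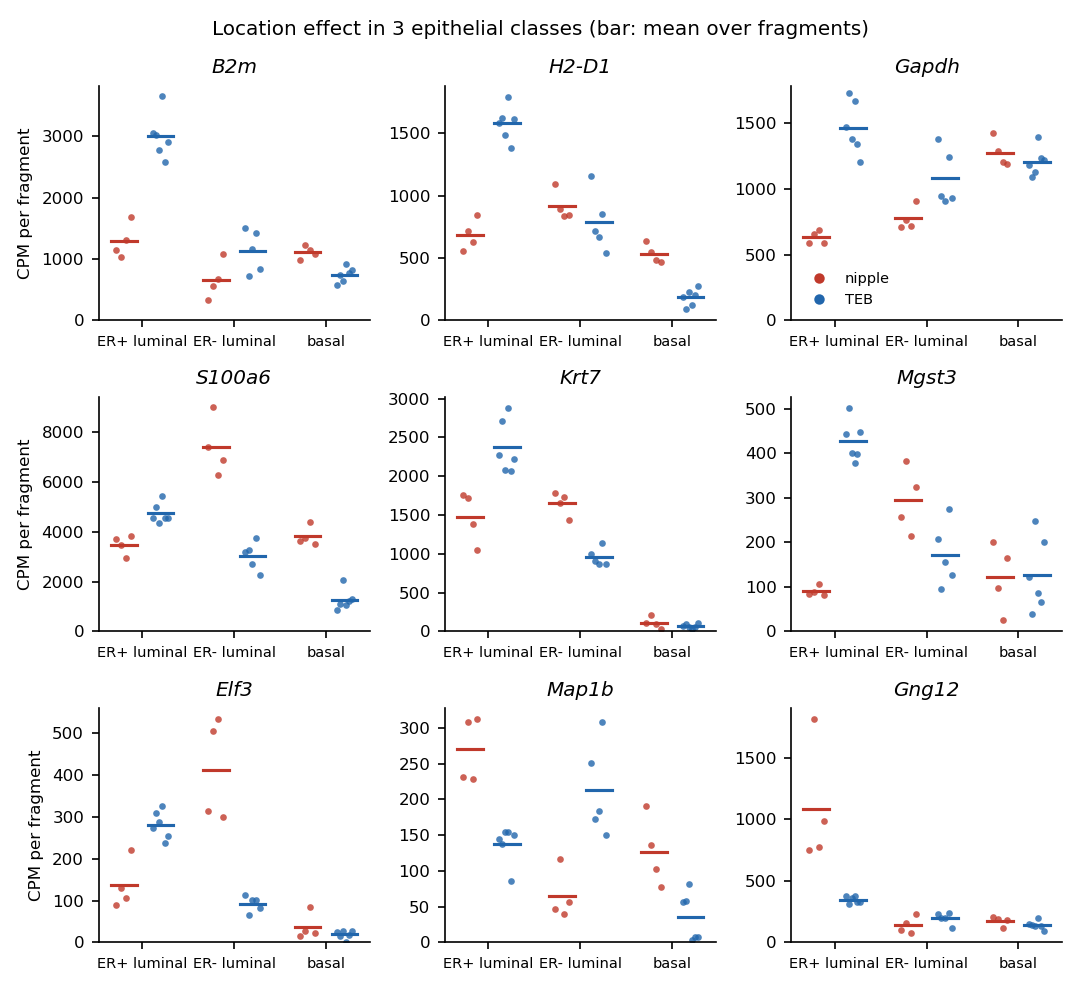
Plain CPM per fragment (vertical axis, from 0) of 9 genes in ER+ luminal, ER- luminal and basal sums, nipple in red and TEB in blue, with a bar at the mean. B2m is higher in TEB than in nipple in ER+ luminal cells and lower in TEB in basal cells, S100a6, Krt7, Mgst3 and Elf3 have opposite orders in ER+ and ER- luminal cells, and Gng12 is high in nipple ER+ luminal cells.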

How the data were processed

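Per the study's methods and the submitters' processing notes, the authors trimmed reads with Trim Galore, checked them with FastQC, extracted barcodes and UMIs with UMI-tools, aligned to mm10 with STAR keeping unique alignments, assigned reads with featureCounts and deposited raw UMI counts per gene and cell, with no normalization. Versions and annotation are not given in the sources used here. The table held 17721 genes and 67 spike-ins, which took 0.758% of the UMIs and were left out of sums and tests. The deposited list of barcodes was not used.

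Cells were filtered and classed as stated above, and the UMIs of a class were added up within each fragment where at least 5 of its cells were present. The study's own test compared single cells by a Wilcoxon test. All 16 fragments were fitted in 1 model with edgeR 4.0.16 in R 4.3.3 (TMM, filterByExpr by location, robust quasi-likelihood fit) and the contrast of nipple minus TEB was taken. The members, gene lists and promoter motifs were chosen with earlier results of these data known. The terms against ER- luminal and basal cells had the fragment as a block. The labels pair no nipple with a TEB fragment. Some genes are not reported here. Besides the 12 genes per direction, up to 4 called members of a list with the smallest p were named with values, any other member a sentence needed, and the 5 genes with the smallest p in each direction of a class term that were also called for nipple against TEB. The share of RNA from other wells is the median over a class's cells of their summed fibroblast and myeloid CPM over the same sum in all cells of the fragment, and this share times a gene's rate in all cells gives its expected UMIs. Where a location had 0 UMIs, the fold is a bound against 3 UMIs over its sums. Counting intervals are exact, at 95%, and cover counting error only. The summed counts limit what can be detected, most of all in nipple.

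Alternatives were DESeq2 1.42.0, RLE scaling, no count filter, nipple and TEB fragments alone, an ERCC limit of 10%, a minimum of 10000 UMIs, thinning to 5000 UMIs, a score margin of 0.2, at least 2 ER+ markers, no cells with 10 basal keratin UMIs, at least 10 cells, no genes over 20% expected from other wells, and leaving out each fragment. The list counts under these were added after the calls were seen. On simulated data with nipple and TEB depths and 8737 genes, 23.1% of changes of 1 on the log2 scale and 67% of changes of 2 were found by edgeR, with 3.30% of calls false, and made 0 calls when no gene was changed. For the term against ER- luminal cells (8535 genes) it found 67%, and for that against basal cells (9031 genes) 76%, of changes of 3. Gene positions were looked up by symbol in GENCODE M21 (GRCm38).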

Additional observations from a re-analysis of the deposited data

Results flagged for a closer look

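Of 45 groups of fragments tested, 11 had 1 fragment far from the others, where chance marks about 1 in 20 groups of values with a normal spread. That rate does not apply near 0 counts, as for Itih2 and Hsd11b2 with 2 UMIs and Crym with 3 UMIs in all, each in 1 fragment. In nipple these were Sftpd in N22 (515 CPM, others 147 to 186), Grb14 in N21 (33.7, others 1.38 to 3.59), Golim4 in N22 (30.5, others 0 to 2.76), and Itih2 in N23 (2.76), Crym in N21 (5.62) and Pir in N23 (9.65), each with 0 in the others. In TEB they were Hsd11b2 in T32 (1.64, others 0), Ifitm1 in T33 (7.76, others 0 to 1.43), Sftpd in T33 (49.1, others 0 to 5.63), Plb1 in T32 (49.1, others 0.831 to 10.3) and Fgb in T34 (1765, others 763 to 1098). The nipple and TEB ranges of all of these genes lie apart because the naming rule required it, so their separation is no check on these fragments.

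The tested difference of the location effect between classes marked 160 genes against ER- luminal cells. The named ones had differences of 2.66 for Map1b, 3.96 for Fkbp11, 1.94 for Gng12, 1.25 for Hspa8, 0.72 for Fth1, -1.89 for S100a6, -1.64 for Krt7, -1.17 for Tmsb4x, -3.18 for Mgst3 and -3.42 for Elf3. Against basal cells it marked 560 genes, with 4.53 for Serpinf1, 3.28 for Gm14005, 4.19 for Acot1, 3.72 for Map3k1, 1.86 for Marcksl1, -2.001 for B2m, -6.79 for Lgals9, -2.87 for Tuba4a, -2.95 for H2-D1 and -1.46 for Gapdh.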

How the results depend on the processing

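The count of 561 genes for nipple against TEB was 486 to 595 under RLE scaling and the other limits on cells, fragments and genes, 397 with nipple and TEB fragments alone, 822 with DESeq2, 663 without a filter on low counts and 216 in cells thinned to 5000 UMIs, where fewer genes could be tested. It was 440 (without T33) to 597 (without N23) with 1 fragment left out. No called gene changed sign, except 2 in thinned cells. Of the called genes, 376 of 515 that could be tested remained called with nipple and TEB fragments alone and 179 of 336 in thinned cells. The 160 genes of the term against ER- luminal cells were 121 to 218 under the other settings and 124 to 149 with 1 fragment left out. The 560 genes of the term against basal cells were 238 in thinned cells, 457 to 641 under the other settings and 437 to 565 with 1 fragment left out. Settings in which a named gene could not be tested gave no value for it and are not counted here. For the 22 named genes reported 598 values under an alternative kept direction and side of the threshold, 0 changed direction and 5 lost the call. Those 5 concerned Csn1s2b, Sftpd, 5430419D17Rik and Crym. The cause of these losses was not tested. No paired analysis was possible because nipple and TEB fragments share no label number.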

Other observations

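The following called genes lie outside the lists and were chosen after their values were seen. The proteasome activator subunits Psme1 (264 CPM in nipple and 602 in TEB on average, log2 difference -1.19, edgeR adjusted p = 0.00017) and Psme2 (295 and 669, -1.18, adjusted p = 2.4e-06) were higher in TEB, as was the cytokine gene Mif (1053 and 2276, -1.11). The interferon-induced Usp18 (17.1 and 87.5 CPM, -2.28) was TEB-higher too. Fgfr2, a receptor for fibroblast growth factors that duct growth needs, had 62.9 CPM in nipple and 204 in TEB (-1.68), and Ramp1, which pairs with the calcitonin receptor-like receptor, 18.1 and 136 (-3.04).

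In nipple the membrane protein Prom2 (396 and 87.1 CPM, 2.19), the cationic amino acid transporter Slc7a2 (262 and 44.2, 2.58), the choline transporter family member Slc44a4 (218 and 42.9, 2.33) and the water channel Aqp3 (211 and 33.4, 2.70) were higher. So were Furin, a protease that matures secreted proteins (192 and 33.6, 2.49), the TAM receptor ligand Gas6 (540 and 102.2, 2.40) and G6pdx, which feeds the pentose phosphate pathway (652 and 303, 1.11). In all of these the fragments of nipple and TEB did not overlap, as in 408 of the 561 called genes and 7.14% of all tested.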
